A study of Mus musculus with 6 samples.

Results

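GFP-positive smooth muscle cells are the aortic cells in which RNA of a lineage reporter was caught together with RNA of smooth muscle myosin. They were chosen by their own counts: a cell had to pass quality limits, hold at least 5 unique molecular identifiers (UMIs) of Myh11 and fewer than 20 of Dcn per 10000 UMIs, and hold at least 1 UMI of the feature GFP, in a library with 100 or more GFP UMIs. These limits found 408 cells among 24972 cells of good quality, of which 9744 were in the smooth muscle gate set by Myh11 and Dcn. GFP and Myh11 levels are therefore a description of the choice and support nothing below.

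In the developing embryo, cells of the cardiac neural crest migrate into the outflow tract and form smooth muscle of the ascending aorta and arch, while the second heart field, a pool of cardiac mesoderm, supplies much of the smooth muscle at the aortic root. In the ascending aorta the territories of the lineages overlap. A Cre recombinase active in one lineage switches on a reporter that all descendants keep, so that a cell can be assigned to its origin long after the genes of the embryonic state have gone silent.

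Single cells from the root of the aorta and its ascending part were sequenced from 6 female mice, 129SVE by strain and 16 weeks old, after enzymatic digestion and sorting of live nucleated cells. Of these mice 4 were Tgfbr1+/+ controls and 2 carried the Loeys-Dietz syndrome allele, Tgfbr1M318R/+. In 2 of the controls the labels add Wnt2CRE, a Cre described as specific for the cardiac neural crest, and EGFP-L10a, a reporter in which green fluorescent protein is fused to the ribosomal protein L10a. The reporter thus marks cells in which a promoter drove the Cre, and cells of the lineage where it did not, or others where it did, would be misassigned. The cells of all mice were deposited as 1 matrix with 6 barcode suffixes, here called libraries 1 to 6, and no label ties a suffix to a mouse, so that no library has a genotype and the libraries are not replicates of a group. Values are given library by library, with no test. Intervals in parentheses are 95% and cover counting error only.

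The libraries go against the labels in number. Quality cells of libraries 1 to 4 held 263, 201, 157 and 258 GFP UMIs, and those of libraries 5 and 6 held 8 and 6. The labels name the reporter in 2 mice, but 4 libraries carried its RNA. The methods of the study give the tracer to some mice without saying of which Tgfbr1 genotype. The 408 cells came from libraries 1 to 4 with 156, 103, 60 and 89 cells. Summed, they held 4099248 UMIs of all genes, and their median depth in the 4 libraries was 10171, 12788, 7592 and 7272 UMIs per cell.

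Barcode sequences were also shared between libraries. Libraries 1, 3, 4 and 5 shared 638 to 1101 barcodes in each pair, libraries 2 and 6 shared 244, and the other pairs shared 2 to 8. Among quality cells no pair shared more than 13. Of the 408 GFP-positive smooth muscle cells 87 had their barcode under another suffix, 77 of them in library 1, where the copies in libraries 3, 4 and 5 held a median of 4.68%, 4.58% and 4.94% of the UMIs of the cell. In 4 cells the copy was itself a quality cell. Main results are therefore also given without these barcodes, an alternative chosen after seeing the data.

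GFP RNA was scarce in the cells that had it. Of the 408 cells 326 held a single GFP UMI, 62 held 2, and 20 held 3 or more, up to 6. The share of smooth muscle cells with a GFP UMI was 9.69% (8.29 to 11.2) in library 1, 12.05% (9.94 to 14.4) in library 2, 3.86% (2.96 to 4.94) in library 3 and 5.09% (4.10 to 6.22) in library 4. In libraries 5 and 6 it was 0.063% (2 of 3175 cells) and 0.501% (4 of 798 cells). After thinning to 3000 UMIs per cell, libraries 1 to 4 had shares of 4.44%, 3.68%, 1.64% and 2.70%, so that fewer cells were recognised at lower depth. Without barcodes found under another suffix the median over these 4 libraries was 6.38%, beside 7.39% with them.

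Other cell classes give the level of GFP outside smooth muscle. Leukocyte-gate cells, which have a UMI of Ptprc and little Myh11 or Dcn, held GFP in 2 of 233 cells of libraries 1 to 4, a share of 0.858% (0.104 to 3.07) at a median of 5227 UMIs. In the smooth muscle gate the share over the same libraries was 7.07% (6.42 to 7.76) at a median of 7621 UMIs. Thinned to 3000 UMIs the shares were 0.513% (0.013 to 2.82) and 3.07% (2.63 to 3.56). Cells of the fibroblast gate, with high Dcn and low Myh11, stood between at 2.49% (2.20 to 2.81), and the endothelial gate at 4.09% (2.36 to 6.56) from 16 cells. By library, GFP was found in 0 of 48 and 1 of 29 endothelial-gate cells of libraries 1 and 2. In libraries 3 and 4 the endothelial shares were 4.42% (1.45 to 10.0) and 4.98% (2.41 to 8.96). Those of the smooth muscle gate there were alike, at 3.86% and 5.09%. Within single libraries the interval of the leukocyte gate overlapped that of the smooth muscle gate in libraries 1 to 3, and in library 4 it ended below it, at 3.93% from 0 of 92 cells.

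The gate limits lay well outside most of the cells. Myh11 ranged from 5.72 to 79.7 UMIs per 10000 in the chosen cells, with a median of 24.5, and the nearest GFP-positive cell left out for low Myh11 had 3.91. Dcn was 0 in 214 of the 408 cells and at most 19.6, and the nearest cell left out for high Dcn had 20.2. Another 295 quality cells of libraries 1 to 4 held GFP outside the gate, 254 of them with high Dcn and low Myh11.

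Contractile genes were abundant in the cells, as the name of the gate has it. For comparison each GFP-positive cell was matched, within its library, to 5 smooth muscle cells with no GFP UMI and nearly the same number of UMIs (2040 cells in all, median depths 10162, 12788, 7587 and 7269). Acta2, the smooth muscle actin, stood at 27792, 31135, 30493 and 27053 UMIs per 1000000 (CPM) in GFP-positive cells of libraries 1 to 4 and at 27121, 30018, 30335 and 27524 in matched cells. The log2 ratios of the 4 libraries were 0.04, 0.05, 0.01 and −0.02. Myh11 gave a median log2 ratio of 0.03, Tagln −0.06, Cnn1 −0.07, Myl9 −0.02 and Tpm2 0.03.

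Few measured genes differed between cells with and without GFP by the rule used here. With GFP itself left out, 4805 genes reached a mean of 25 CPM, and their median log2 ratio was −0.01. A gene was called when its ratio had 1 sign in all 4 libraries and a median of at least 0.5 in size. By this rule 10 genes were called higher in GFP-positive cells, 0.208% of those measured, and 16 lower, 0.333%. With no limit on size, 422 genes were positive in all 4 libraries (8.78%) and 499 negative (10.4%). Without barcodes found under another suffix 10 were called higher and 33 lower, and leaving out 1 library gave 14 to 27 higher and 28 to 32 lower, fewer libraries being asked for 1 sign. The number of called genes thus depends on the rule.

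The clearest difference was in Rpl10a, which encodes the ribosomal protein that the reporter fuses to GFP (chromosome 17, 28328471 to 28331033, plus strand, mm10). GFP-positive cells had 3153, 3023, 2274 and 2167 CPM of Rpl10a in libraries 1 to 4, and matched cells had 1458, 1661, 957 and 1121 CPM. The log2 ratios were 1.11, 0.86, 1.25 and 0.95, so that every library came close to a doubling. Over the summed libraries the ratio was 1.01 (0.98 to 1.04) from 11658 and 28806 UMIs. Without barcodes found under another suffix the median was 1.12.

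Of 77 measured ribosomal protein genes Rpl10a alone was called, while 32 were positive in all 4 libraries (41.6%, beside 8.78% of all genes) and 2 negative. The next was Rps27 at a median log2 ratio of 0.14, the lowest was Rpl36al at −0.08, and the median of the 76 others was 0.05. As a share of all ribosomal protein UMIs, Rpl10a made up 3.77%, 2.64%, 2.69% and 2.62% in GFP-positive smooth muscle cells of libraries 1 to 4 and 1.90%, 1.49%, 1.25% and 1.35% in all GFP-negative ones. In libraries 5 and 6 the GFP-negative smooth muscle cells stood at 0.855% and 1.09%, and the 6 cells there with a GFP UMI at 0.371% and 0.959%. Those 6 cells thus had the GFP UMI without the raised Rpl10a.

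Cells with more GFP had more Rpl10a in library 1, where the share was 3.64% (3.53 to 3.76) with 1 GFP UMI and 4.19% (3.98 to 4.42) with 2 or more, and in library 2, where it was 2.52% (2.43 to 2.62) and 2.98% (2.82 to 3.16). The intervals overlapped in library 3 at 2.71% and 2.60% and in library 4 at 2.61% and 2.69%. Reads of the fusion transcript and of the endogenous gene cannot be told apart in a table of counts per gene.

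**Figure D1:**
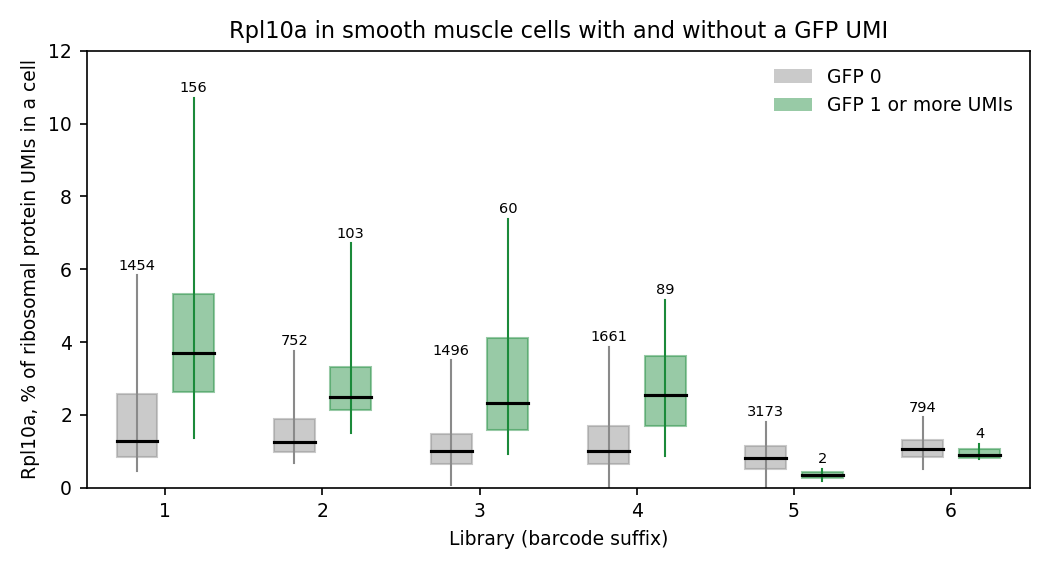
Rpl10a as a percentage of the ribosomal protein UMIs of a smooth muscle cell (vertical axis) in the 6 libraries (horizontal axis), for cells with no GFP UMI (grey) and with 1 or more (green). Boxes span the 25th to the 75th percentile of cells, black lines are medians, whiskers span the 5th to the 95th percentile and the numbers count cells. The medians of GFP-positive cells are 3.70, 2.49, 2.33 and 2.55 in libraries 1 to 4, against 1.27, 1.27, 1.00 and 1.01 in GFP-negative cells.

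Single cells showed the same difference. Rpl10a made up 2% or more of the ribosomal protein UMIs in 85.3% (78.7 to 90.4) of the GFP-positive cells of library 1, 81.6% (72.7 to 88.5) of library 2, 65.0% (51.6 to 76.9) of library 3 and 65.2% (54.3 to 74.96) of library 4. Among smooth muscle cells with no GFP UMI the shares were 32.8%, 22.6%, 14.4% and 19.0% in the same libraries and 3.59% and 4.03% in libraries 5 and 6. Without barcodes found under another suffix the GFP-positive shares were 88.6%, 82.2%, 67.9% and 67.1%. The limit of 2% was set after seeing the data. Outside the smooth muscle gate, GFP-positive cells of the fibroblast gate also had more Rpl10a, at 1.95%, 1.42%, 2.002% and 1.75% of ribosomal protein UMIs against 0.923%, 0.906%, 0.873% and 0.834% in GFP-negative ones.

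The rest of the reporter list gave little. Sm3_intact, the other added feature of the matrix, had 0 UMIs in every library. Wnt1 had 0 UMIs in GFP-positive and in matched cells, and Wnt2 had 0 and 4. The labels and the methods of the study name Wnt2 as the promoter of the Cre, and the methods also give a stock number of the line. Whether Wnt1 is meant could not be told from the files. Gt(ROSA)26Sor, a noncoding transcript of a locus often used to carry reporters, had 48 and 241 UMIs and a median log2 ratio of −0.16.

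GFP-positive cells leaned toward the ascending type. Cells were sorted by position genes of the study: ascending type with a UMI of Tes or Ptprz1 and none of Enpep, Notch3 or Gata4, and root type the reverse. In library 1 a GFP UMI was found in 12.6% (10.5 to 14.9) of 914 ascending-type cells and 3.55% (1.31 to 7.57) of 169 root-type cells. In library 2 the shares were 15.9% (12.7 to 19.6) and 4.65% (1.73 to 9.85). In library 3 they were 4.65% (3.31 to 6.33) and 1.90% (0.519 to 4.78), and in library 4, 5.34% (3.92 to 7.09) and 4.65% (2.57 to 7.68). The ascending type was above the root type in all 4 libraries, with separate intervals in libraries 1 and 2 only.

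Cells were also thinned and sorted again by type, which left more of them with no position gene. Thinned to 3000 UMIs, the ascending and root types held GFP in 5.93% (4.41 to 7.79) and 1.33% (0.162 to 4.73) of cells in library 1 and 5.13% (3.07 to 7.98) and 1.19% (0.0301 to 6.46) in library 2. In libraries 3 and 4 the thinned shares were 2.01% and 0.629% and 2.75% and 2.79%. The root types of libraries 1 to 3 then held 2, 1 and 1 cells with GFP, and the intervals overlapped in every library. Over the 4 libraries together the thinned shares were 3.98% (3.24 to 4.84) and 1.71% (0.856 to 3.04). Read the other way, 73.7%, 70.9%, 63.3% and 50.6% of the GFP-positive cells were of ascending type, beside 56.5%, 54.0%, 55.0% and 49.2% of their matched cells. Root-type cells made up 3.85%, 5.83%, 6.67% and 15.7% of GFP-positive cells and 9.10%, 15.1%, 11.7% and 17.3% of matched cells.

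A raised share of Rpl10a followed the same order in cells without a GFP UMI. Among these, 37.5% (34.2 to 41.0) of ascending-type and 17.2% (11.7 to 23.9) of root-type cells of library 1 had Rpl10a at 2% or more of ribosomal protein UMIs. The shares were 31.6% (27.0 to 36.5) and 7.32% (3.40 to 13.4) in library 2, 16.7% (14.1 to 19.5) and 10.6% (6.78 to 15.6) in library 3, and 22.0% (19.1 to 24.99) and 9.06% (6.003 to 13.0) in library 4. In libraries 5 and 6, which hold almost no GFP, the types were alike at 2.87% and 2.86% and at 3.87% and 3.68%.

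**Figure D2:**
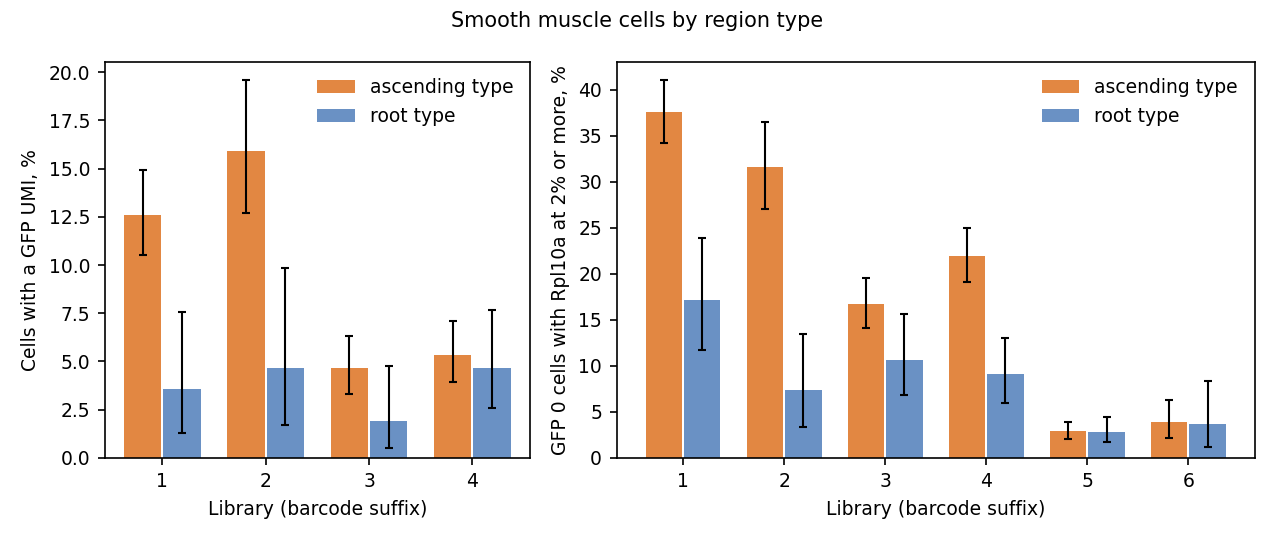
Left, the percentage of ascending-type and root-type smooth muscle cells with at least 1 GFP UMI in libraries 1 to 4; right, the percentage of cells without a GFP UMI whose Rpl10a was 2% or more of ribosomal protein UMIs, in libraries 1 to 6. Bars are shares of cells and lines are 95% Clopper-Pearson intervals, which cover counting error only. The ascending type is higher in each of libraries 1 to 4 in both plots, and in libraries 5 and 6 the types lie close together.

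Igfbp2 led the ascending list. This gene, for an insulin-like growth factor binding protein (chromosome 1, 72824503 to 72852474, plus strand), stood at 309, 232, 275 and 150.3 CPM in GFP-positive cells and at 146, 114, 257 and 68.6 CPM in matched cells. The log2 ratios were 1.08, 1.02, 0.10 and 1.13. A few cells held most of these UMIs: 21.8%, 20.4%, 13.3% and 13.5% of GFP-positive cells had any, beside 16.9%, 18.3%, 17.3% and 10.8% of matched cells, and 1 cell held 72.4% of the Igfbp2 UMIs of GFP-positive cells in library 3 and 1 held 51.4% in library 4. By the share of cells, then, Igfbp2 was higher in 3 of the 4 libraries. In the 82 cells with 2 or more GFP UMIs its median log2 ratio was 0.18, against 410 cells matched to these. Their summed UMIs gave 202 CPM. The 2040 cells matched to all 408 gave 135 CPM, in another mix of libraries.

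Ptprz1, a receptor tyrosine phosphatase, was positive in all 4 libraries, with 255, 235, 188 and 232 CPM against 229, 185, 171 and 151 CPM, but its median log2 ratio of 0.25 was under the limit. Tes, a focal adhesion protein, was split, at 0.60 and 0.63 in libraries 1 and 2 and −0.42 and −0.20 in libraries 3 and 4. Optc, a small leucine-rich proteoglycan, had a median of −0.06, and Carmn, a noncoding RNA of smooth muscle, −0.26. Of the 5 ascending genes 1 was called higher, beside 0.208% of all genes, and their median was 0.20, or 0.07 to 0.34 with 1 library left out. Igfbp2, the called gene, and Optc are not named in the text of the study and were listed with earlier results of these data known.

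The root list lay lower, with a median log2 ratio of −0.53 over the 7 of its 12 genes that were measured, beside −0.01 over all genes, and with 2 genes called lower, beside 0.333% of all genes. Pln, Pgam2, Olfr558, Nptx2, Scx and Wnt16 of this list are not named in the text of the study. They were listed with earlier results of these data known, so that the list is no independent measure of position. The median was −0.50 to −0.28 with 1 library left out, −0.22 with 1 matched cell per GFP-positive cell and −0.17 from 1 sum over libraries. By library the medians were −0.57, −0.29, −0.50 and −0.11. The 12 genes summed to 337, 351, 335 and 551 CPM against 452, 516, 441 and 501, so that library 4 went the other way. Enpep, the aminopeptidase that trims angiotensin II (chromosome 3, 129269175 to 129332720, minus strand), had 13.0, 24.9, 10.8 and 42.9 CPM in GFP-positive cells and 30.0, 30.4, 27.7 and 46.4 in matched cells. Its ratios were −1.20, −0.28, −1.33 and −0.11, and over the summed libraries −0.59 (−0.92 to −0.27). In the cells with 2 or more GFP UMIs its median was −0.05, against 410 cells matched to these. Their summed UMIs gave 23.2 CPM. The 2040 cells matched to all 408 gave 32.6 CPM, in another mix of libraries. Pln, phospholamban, the inhibitor of the calcium pump of the sarcoplasmic reticulum, had 18.0, 36.2, 28.1 and 40.1 CPM against 53.8, 64.8, 28.6 and 67.2. It was called lower at a median of −0.79, with a ratio of −0.02 in library 3.

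Thrombospondin 1, Thbs1, had the lowest median of the root list, −2.27, but was split, at 12.4, 6.79 and 6.49 CPM in GFP-positive cells of libraries 1 to 3 against 45.0, 52.4 and 44.1 in matched cells, and 106 against 73.5 in library 4. There 1 of the 89 GFP-positive cells held 70.3% of its UMIs. The median was −0.60 with 1 matched cell per GFP-positive cell and −3.93 in the cells with 2 or more GFP UMIs. Summed over libraries these cells had 58 UMIs and 64.1 CPM, beside 52.1 CPM in the cells matched to all 408. The cell of library 4 just named held 52 of these 58 UMIs. By the share of cells with a Thbs1 UMI, GFP-positive cells were lower in every library, at 5.77%, 7.77%, 3.33% and 10.1% against 11.7%, 15.5%, 9.33% and 14.2%.

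The other measured root genes were Meg3 at a median of −0.53, Scx at −0.15, Wnt16 at −0.04 and Nptx2 at 0.29. Meg3 was split, lower in libraries 1 to 3 and higher in library 4, at 163 against 73.2 CPM. There 1 of the 89 GFP-positive cells held 48.2% of its UMIs. Nptx2 was split too, at 0.83 and 1.39 in libraries 1 and 3 and −0.25 and −1.27 in libraries 2 and 4. Scx and Wnt16 also had mixed signs. The remaining 5 root genes were too scarce to be measured. Among them Notch3, a receptor of the Notch pathway, was lower in all 4 libraries at 7.44, 9.05, 8.65 and 17.2 CPM against 15.8, 20.8, 21.6 and 29.4, a summed log2 ratio of −1.06 (−1.57 to −0.59) from 40 and 417 UMIs. Pgam2 was also negative in all 4, with a median of −1.58, and Olfr558 had 9 UMIs in GFP-positive and 126 in matched cells. Gata4 was negative in libraries 1 and 2 and positive in 3 and 4, and Agtr1a had 26 and 128 UMIs and no common direction.

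Outside the lists of position, Atf5, a transcription factor of the stress response (chromosome 7, 44812256 to 44816658, minus strand), was lower in every library. GFP-positive cells had 92.4, 61.9, 82.2 and 67.3 CPM and matched cells 167, 176, 128 and 132 CPM, with log2 ratios of −0.86, −1.50, −0.64 and −0.97. A UMI of Atf5 was found in 39.1%, 43.7%, 30.0% and 32.6% of GFP-positive cells and 53.2%, 64.3%, 43.0% and 40.9% of matched cells. Matched also on a region score, the log2 ratio of ascending-list to root-list UMIs of a cell, its median was −0.89, and without barcodes found under another suffix −1.16.

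Further genes were called lower. C1s1, a protease of the complement cascade, had a median of −0.87 and 12.4, 15.1, 23.8 and 40.1 CPM against 27.6, 44.4, 35.9 and 51.6. Tmem176b, a membrane protein, had a median of −0.94, but in library 4 the levels were 61.6 and 61.7 CPM. The interferon-induced gene Ifi27l2a had the most negative median, −1.63, and ranged from −2.71 to −0.55 with 1 library left out: in library 4 a single matched cell held 87.0% of its UMIs, and the share of cells with a UMI was no lower in GFP-positive cells of library 1 or 3.

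Smaller negative medians were those of Ccdc3 (−0.72), Tesc (−0.70), a calcium-binding protein, the noncoding RNA AI838599 (−0.57), the retinol carrier Rbp4 (−0.55), the Mediator subunit Med10 (−0.54) and the septin Sept11 (−0.54). Fbxw5, Rnf181, Pcolce and Tsc22d3 completed the 16 at −0.52 to −0.50. Ratios of −0.06 or closer to 0 in 1 library were part of the calls of Fbxw5, Rnf181, Pln and Tmem176b. With 1 library left out the medians came as near 0 as −0.26 for AI838599, −0.20 for Med10 and −0.24 for Tsc22d3.

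Of the genes called higher besides Rpl10a and Igfbp2, Hbegf, a growth factor of the epidermal growth factor family, had 67.0, 95.8, 82.2 and 93.0 CPM against 51.3, 51.2, 46.7 and 56.8. Its median was 0.76, and 0.42 when cells were matched also on their share of dissociation genes. Cldn3, a tight junction protein, had a median of 0.71 and 31.6, 47.5, 43.3 and 14.3 CPM against 27.4, 24.6, 27.3 and 8.36. In the 82 cells with 2 or more GFP UMIs, which hold 18 Cldn3 UMIs, its median was −1.64. The others were Csrnp1 (0.66), Hddc2 (0.64), the olfactory receptor gene Olfr1033 (0.63, with 0.00 in library 4), the kinase Pim1 (0.59), Aplp1 (0.52), a relative of the amyloid precursor, and the kinase Sgk1 (0.51). Matched also on dissociation genes, Sgk1 stood at 0.17 and was under the limit. The medians of Olfr1033 and Aplp1 were 0.17 in the cells with 2 or more GFP UMIs, against 410 cells matched to these. Summed over libraries the cells with 2 or more had 245 and 33.1 CPM. The 2040 cells matched to all 408 had 162 and 25.2 CPM, in another mix of libraries.

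A second comparison asked whether these genes also differ with Rpl10a in cells that had no GFP UMI. It used only GFP-negative smooth muscle cells of libraries 1 to 4 that had not served as matched cells, so that it shares the libraries but no cell with the first. In these, 685 cells with Rpl10a at 2% or more of ribosomal protein UMIs (238, 48, 175 and 224 in libraries 1 to 4) were each matched on depth to 1 cell under 1.5%. In library 2 these sets differed in median ribosomal protein UMIs, 525.5 against 735, and in mitochondrial UMIs, 6.26% against 4.86%. Of 76 other ribosomal protein genes 21 were negative in all 4 libraries (27.6%, beside 10.6% of all genes), none was positive in all, and their median was −0.05. Among 4878 measured genes 29 were called higher (0.595%) and 54 lower (1.11%), and 9.35% were positive and 10.6% negative in all 4 libraries. The comparison and its limits were chosen after seeing the data.

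Genes lower in GFP-positive cells were mostly lower in these cells too. Of the 16, 12 were negative in all 4 libraries (beside 10.6% of all genes) and 10 were called lower (beside 1.11%): Tmem176b, Atf5, C1s1, Pln, Enpep, Tesc, AI838599, Rbp4, Sept11 and Tsc22d3. Enpep had ratios of −1.53, −0.30, −1.80 and −1.47, Pln −1.26, −2.78, −0.83 and −1.31, and Atf5 −1.52, −1.10, −0.64 and −0.67. Thbs1, which was split in the first comparison, was lower in all 4 here at −1.59, −1.76, −1.13 and −1.47. Ifi27l2a, Fbxw5, Rnf181 and Pcolce had mixed signs.

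Of the 9 genes higher in GFP-positive cells besides Rpl10a, 4 were positive in all 4 libraries, beside 9.35% of all genes: Cldn3 at 1.48, 1.80, 1.55 and 2.26, Aplp1 at 0.39, 1.18, 0.56 and 0.74, Sgk1 at a median of 0.51 and Olfr1033 at 0.42. Igfbp2 reached 0.92, 4.18 and 2.54 in libraries 1, 2 and 4 and was level in library 3, as in the first comparison. Hbegf, Csrnp1 and Pim1 had medians of 0.13, 0.25 and −0.05, and Hddc2 was too scarce to be measured, with a median of −0.43.

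Other genes were called in the second comparison and not in the first, named here after their values were seen, and the difference between the comparisons was not tested. Ltbp2, a latent TGF-β binding protein, had a median of 1.16, the neuronal pentraxin Nptx2 0.92, the neurotrophin Bdnf 0.74, the chloride channel Ano1 0.73 and Col15a1 0.58. Lowest was the synuclein Sncg at −2.20, followed by Pgam2 at −1.70, which was below the measured level in the first comparison with a median of −1.58. Crip1, an abundant LIM-domain protein, had −0.70, −0.77, −0.81 and −0.70. In libraries 5 and 6 the same split of GFP-negative cells by Rpl10a, with 146 pairs of cells, gave Enpep −0.39 and 0.21, Atf5 −0.32 and 0.19 and Thbs1 0.00 and 2.07. Over both libraries Cldn3 had 3 UMIs in the Rpl10a-high and 8 in the Rpl10a-low cells. Aplp1 had 10 and 6, with ratios of 0.74 and 0.49 in libraries 5 and 6. Other genes had 1 sign in both: Igfbp2 at 1.90 and 1.44, Olfr1033 at 0.71 and 1.56, Col15a1 at 0.33 and 0.92, Ccdc3 at 0.46 and 0.41, Pln at −0.04 and −1.01 and Tsc22d3 at −0.45 and −0.89. Hbegf was lower in both and Pcolce higher, at medians of −0.87 and 0.78.

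**Figure D3:**
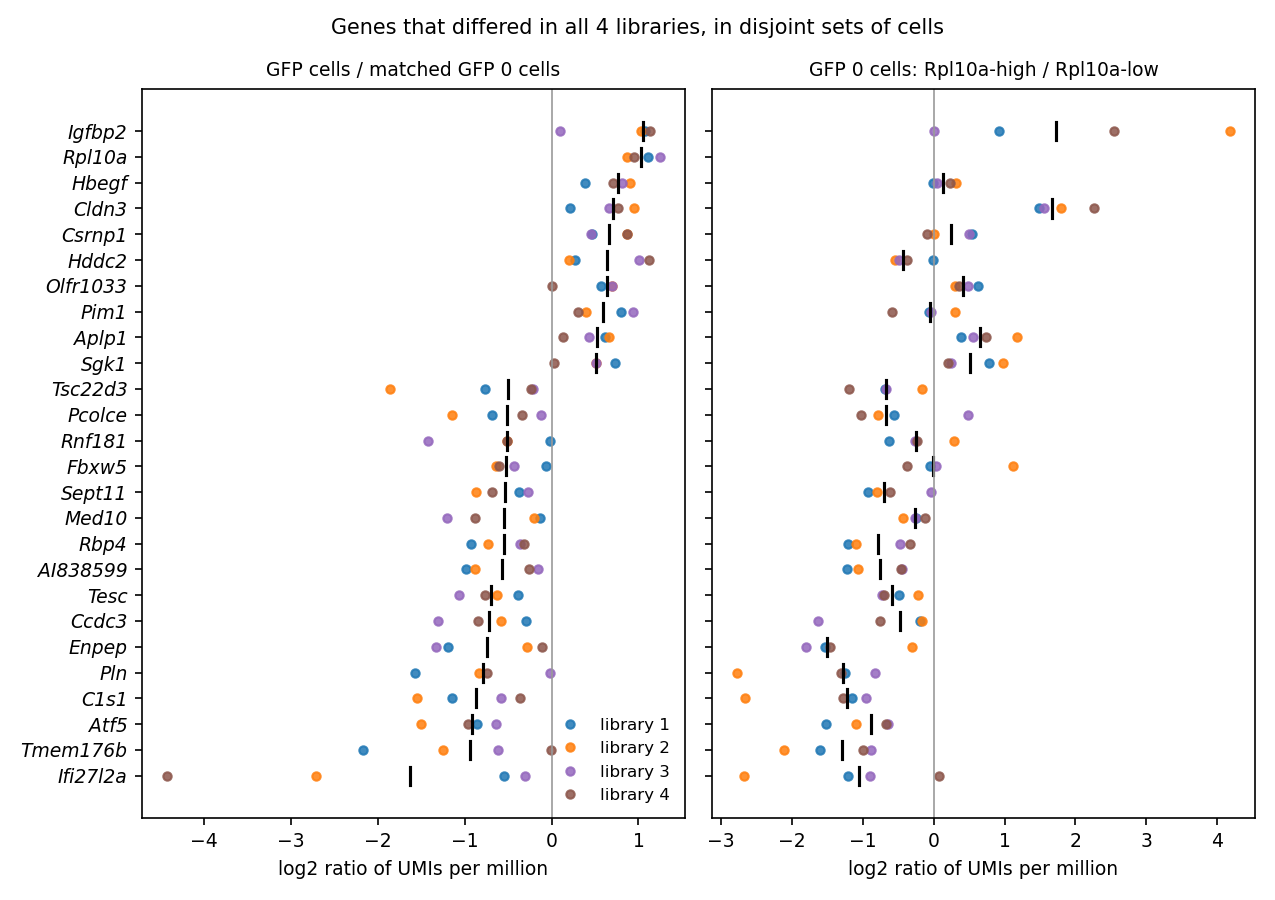
Log2 ratios of CPM for the 26 genes called in GFP-positive smooth muscle cells, 1 point per library (1 to 4) and a black line at the median. Left, GFP-positive cells over matched GFP-negative cells; right, GFP-negative cells with Rpl10a at 2% or more of ribosomal protein UMIs over those under 1.5%, in other cells of the same libraries (Rpl10a, which defines the split, is left out). From Enpep down to Tmem176b all points on the right are negative, while Hbegf, Csrnp1 and Pim1 lie around 0.

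Of the genes of other smooth muscle subsets, Tnnt2 went opposite ways in libraries 1 and 2 and in libraries 3 and 4. Tnnt2, cardiac troponin T, had 17.4 and 13.6 CPM in GFP-positive cells of libraries 1 and 2 against 97.6 and 85.6 in matched cells, and 190.4 and 245 CPM in libraries 3 and 4 against 81.4 and 144. A Tnnt2 UMI was found in 5.13% and 5.83% of GFP-positive cells of libraries 1 and 2 and in 41.7% and 31.5% of those of libraries 3 and 4, while matched cells kept to 13.5% to 18.0%. The second comparison gave the same signs, at −2.03, −2.29, 1.89 and 1.56. Desmin, Des, an intermediate filament of muscle from the contractile list, followed with ratios of −0.84, −1.42, 0.41 and 0.70. GFP-positive cells thus held few Tnnt2 transcripts in 2 libraries and many in the other 2.

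Of the other genes of these subsets, Npnt, a matrix protein that binds integrin, had a median of 0.18 and the adhesion molecule Ncam1 0.09. Rgs5 had 0.00 with −2.39 in library 3, Fabp3 −0.19 and Rgs4 −0.41. Npnt stood at 0.29, 0.45, −0.03 and 0.07 in libraries 1 to 4, and Fabp3 was negative in all 4. Foxf1 (−0.40) and Kcnc4 (−0.13) were not measured. None of the 8 was called, and the median over the 6 measured was −0.09.

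None of the 22 contractile genes was called, and their median was −0.01. The extremes were Myocd, the coactivator of the contractile program, at 0.22 and positive in all 4 libraries, Actn1 at 0.11, Synpo2 at −0.10 and Des at −0.21. Those between were Smtn, Tpm1, Myl6, Mylk, Actg2, Flna, Lmod1, Cald1, Vcl, Pdlim7, Csrp1, Ppp1r14a and Itga8, with medians from −0.09 to 0.06. Genes of less differentiated smooth muscle had a median of 0.03 over 6, from Klf4 (0.38, positive in all 4) and Malat1 (0.09) to Cebpd (−0.13) and Twist1 (−0.31).

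Genes of the lists of embryonic lineages were mostly below the measured level, a mean of 25 CPM, which is not the same as silent. Msx1, Ets1 and Tbx20, for example, had 74, 72 and 53 UMIs in GFP-positive cells and 560, 359 and 343 in matched cells. Of 30 neural crest genes 7 were measured and none was called. Among them were Prrx1 (0.17), Hand2 (0.16), the semaphorin Sema3c (0.08), Meis2 (0.04), Meis1 (−0.11) and Twist1 (−0.31). Sox10, Pax3 and Pax7 had 0 UMIs in both. Ednrb, a receptor of endothelin, had 1 UMI in the GFP-positive cells and 67 in the matched cells, a log2 ratio of −3.75 (−9.07 to −1.22). Msx1 was negative in all 4 libraries at a median of −0.55, below the measured level.

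Of 23 genes of cardiac mesoderm 6 were measured: Osr1 (0.38), Gata6 (0.29), Tbx18 (0.17), Foxc1 (0.09), Mef2c (−0.02) and Foxc2 (−0.19). Gata6, a zinc finger factor of outflow tract smooth muscle, was positive in all 4 libraries, with 139, 127, 182 and 165 CPM against 113, 104, 120 and 137, and was not called. Mesp1 had 0 UMIs. Of 38 Hox genes only Hoxa3 (0.25) and Hoxb2 (−0.21) were measured, and each was split 2 libraries against 2. The measured genes of the lists of both lineages had medians of 0.08 and 0.13, and with no filter on level the lists had −0.29 and −0.34. In the cells with 2 or more GFP UMIs the neural crest list had −0.06.

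The extracellular matrix was nearly level. The elastic fibre list had a median of 0.02 over 15 genes, from elastin, Eln (0.25), and Efemp2 (0.22) to Ltbp4 (−0.11) and Emilin1 (−0.22). Collagens had 0.04 over 15, from Col15a1 (0.32) and Col5a2 (0.16) to Col4a1 (−0.06) and Col6a3 (−0.08). Other basement membrane genes had −0.03 over 6, with Lamb2 (0.11) and Sparc (0.05) above Lamc1 (−0.08) and Lama4 (−0.26). Proteoglycans and matricellular proteins had −0.14 over 18, with Cyr61 (0.58) and Sost (0.25) above Aspn (−0.35) and Thbs1. None of these genes was called.

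Signalling lists held no called gene either. Integrins had a median of 0.10 over 9, from Itga5 (0.34) and Itgb1 (0.15) to Itgb5 (−0.08) and Itga1 (−0.09). The TGF-β and BMP list had 0.07 over 20, from Smad1 (0.25) and Tgfbr3 (0.20) to Ski (−0.18) and Tgfb1 (−0.25, negative in all 4). The Notch list had −0.13 over 7, with Maml2 (0.39) and Notch2 (−0.01) above the ligand Jag1 (−0.25, negative in all 4) and the target Hes1 (−0.49). Channels and receptors had 0.00 over 13, from the natriuretic peptide receptor Npr1 (0.32) and Cacnb2 (0.20) to Kcnma1 (−0.21) and Rgs4. Inflammation and senescence had 0.08 over 12, with Nfkbiz (0.42) and Gadd45b (0.21), both positive in all 4, and Nfkb1 (−0.11) and Cxcl2 (−0.32) lowest. Cxcl2 had 2, 2 and 3 UMIs in GFP-positive cells of libraries 1 to 3. In library 4 it was higher, at a ratio of 2.06. There 1 cell held 87.0% of its UMIs in GFP-positive cells and 1 cell 85.9% in matched cells.

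No gene of the list of dissociation genes was called. The median of this list was 0.19 over 26 genes, of which 10 were positive in all 4 libraries (38.5%, beside 8.78% of all genes), with medians by library of 0.41, 0.16, 0.35 and −0.03. Dusp1 (0.49) and Fosb (0.44) led and Zfp36 (−0.20) and Klf2 (−0.29) ended the list. Their summed level was 19218, 17358, 23244 and 18239 CPM against 14742, 15577, 17852 and 18365, with Fos the most abundant. What part dissociation has in the values of Hbegf, Sgk1, Csrnp1 and Pim1 was not tested beyond the matching given above.

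No mitochondrial transcript was called. Their median was −0.14, with 10 of 13 negative in all 4 libraries (76.9%, beside 10.4% of all genes), from mt-Nd6 (0.11) and mt-Nd4l (−0.09) to mt-Nd5 (−0.22) and mt-Atp8 (−0.34). The median mitochondrial share was 4.41%, 3.76%, 3.45% and 3.45% in GFP-positive cells and 4.89%, 4.28%, 4.01% and 3.81% in matched cells. Nuclear genes of oxidative phosphorylation had a median of −0.07 over 82, with 20 negative in all 4 and 2 positive. Their extremes were Sdhaf1 (0.16), Ndufv2 (0.15), Ndufa13 (−0.27) and Cox4i2 (−0.34). None was called.

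Markers of other cell types gave no common direction. The fibroblast list had a median of 0.05 over 8 of 15 genes, from Fbln1 (0.14) and Mfap5 (0.12) to Gsn (−0.12) and Lum (−0.29), and summed to 4347, 4188, 4333 and 4423 CPM against 4273, 3861, 4315 and 4665, with Col3a1 the most abundant. The endothelial list, of which Fabp4 (−0.24) and Pecam1 (−0.06) were measured, summed to 198, 144, 236 and 268 CPM against 186, 115, 339 and 607. For leukocytes Cd74 alone was measured (−0.12), and the list summed to 40.9, 127, 593 and 912 CPM against 140.0, 206, 440 and 553. In library 4 a single GFP-positive cell held 70.9% of the Cd74 UMIs.

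The pericyte list summed to 1100, 634, 361 and 585 CPM against 927, 580, 1008 and 668, with Rgs5 the most abundant, Pdgfrb (0.14) highest and Abcc9 (−0.16) and Cox4i2 lowest. Cardiomyocyte markers summed to 80.6, 73.9, 238 and 299 CPM against 165, 151, 153 and 193, of which Tnnt2 and Ryr2 (0.18) were measured. No gene of the glia and melanocyte list or of the erythroid list was measured, and these summed to at most 39.7 and 7.16 CPM in GFP-positive cells. Of cell cycle genes Pcna alone was measured, at −0.04.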

How the data were processed

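Single cells of 6 mice were captured with 10x Genomics 3′ chemistry. The authors aligned reads to mm10 and aggregated the libraries, with Cell Ranger 6 per the labels and 4.0.0 per the file headers. They deposited 1 matrix of UMI counts for 31055 features, 31053 mouse genes and 2 added sequences, in 30716 barcodes. No label gives the aggregation's scaling or ties a suffix to a mouse.

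Quality cells had 1000 to 5000 genes, 1500 to 25000 UMIs and under 20% mitochondrial UMIs. GFP-positive cells and their matched cells (5 nearest on log UMIs, without reuse, within a library) were summed by library, and log2 ratios of CPM took a prior of 0.5 UMI. Genes under a mean of 25 CPM were not measured. Endothelial-gate cells had low Myh11 and Dcn, 2 or more UMIs of Pecam1 and Cdh5 together and none of Ptprc. No model was fitted and no p-value computed. No library has a genotype, so that the libraries are not replicates of a group of mice. The contrast within libraries needs no genotype, but it was given by signs and medians, with no test. The rule for genes was tried on simulated counts with counting error only. Variation between cells or between libraries was not simulated, so that its effect on the calls was not tested. Shares have Clopper-Pearson 95% intervals, and ratios of summed UMIs exact conditional ones. Doublets were not removed: a score from simulated cell pairs marked the top 5% of each library, 4.66% of GFP-positive and 2.87% of GFP-negative smooth muscle cells, and an alternative leaves them out.

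Named genes were every gene of the reporter, contractile, ascending, root and subset lists, every called gene of the GFP comparison, the 2 highest and 2 lowest of every other list, and the measured neural crest and cardiac mesoderm genes, of which 1 is not reported here. Unmeasured genes of these lists, such as Ednrb and Msx1, and genes of the comparison by Rpl10a alone were named after their values were seen. The comparison by Rpl10a, its limits of 2% and 1.5%, the run without barcodes found under another suffix and the run against Rpl10a-low cells were chosen after seeing the data. A first version of the comparison by Rpl10a used all GFP-negative cells, gave the same direction of results and was replaced by the one on cells outside the matched set. Members and lists were chosen with earlier results of these data known. Coordinates are from GENCODE M21. Python 3.11.15, numpy 2.4.6, scipy 1.17.1, pandas 2.3.3 and scikit-learn 1.9.0 were used.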

Additional observations from a re-analysis of the deposited data

Results flagged for a closer look

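GFP UMIs were also found in the libraries that the comparisons do not use: 8 in quality cells of library 5 and 6 in those of library 6, above the 3 counts that a count of 0 allows. In library 5 they lay in 7 cells, 2 of them in the smooth muscle gate and 4 in the fibroblast gate, and in library 6 in 6 cells, 4 and 2 by gate. Rpl10a made up 0.371% and 0.959% of ribosomal protein UMIs in the smooth muscle cells among them, beside 0.855% and 1.09% in those without GFP. In the fibroblast gate it made up 1.09% (0.743 to 1.53) and 1.27% (0.912 to 1.73), beside 0.737% and 0.837%. Where these UMIs came from was not tested.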

How the results depend on the processing

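No paired test was run, and the results come from no test. Each ratio does compare GFP-positive and matched cells of 1 library. Of the 494 values that the 26 called genes took under 19 alternatives, 1 changed sign and 23 moved by at least the standard deviation over libraries. In the 82 cells with 2 or more GFP UMIs Cldn3 changed sign, to −1.64, and 10 medians were under the limit of 0.5: Igfbp2 0.18, Olfr1033 0.17, Aplp1 0.17, Sgk1 0.43, Enpep −0.05, Sept11 −0.09, AI838599 −0.14, Fbxw5 −0.21, Tesc −0.40 and Rnf181 −0.48. Farther from 0 there were Tmem176b −2.83, Med10 −2.47, Atf5 −2.01, Pln −1.69, Pcolce −1.25 and Rbp4 −0.88. These medians rest on few UMIs, such as 21 of Tmem176b and 12 of Med10 over the libraries. Summed over libraries, Tmem176b and Pln had 23.2 and 28.7 CPM in these 82 cells, and 24.1 and 28.8 CPM in cells with 1 GFP UMI. Med10, Atf5 and Rbp4 had 13.3, 44.2 and 104 CPM, and 28.5, 86.4 and 131 CPM with 1 GFP UMI. Hbegf was 0.42 matched also on dissociation share, 0.46 with no matching and 0.48 with the stricter gate, where Cldn3 was 0.39. Sgk1 was 0.17 matched also on dissociation share and Enpep −0.02 on region score, which holds Enpep and the whole root list, so that values near 0 are expected by construction. With 1 library left out the medians nearest 0 were Med10 −0.20, Tsc22d3 −0.24, AI838599 −0.26, Hddc2 0.27, Enpep −0.28, Pcolce −0.34, Rbp4 −0.37, Sept11 −0.38, Pim1 0.39, Aplp1 0.43, Fbxw5 −0.44 and Csrnp1 0.46.

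The number of genes called moved with the rule and with the cells summed. It was 22 higher and 30 lower with 1 matched cell per GFP-positive cell, 16 and 8 when matched also on region score, 52 and 94 in the 82 cells with 2 or more GFP UMIs, 5 and 4 with a filter at 50 CPM, 103 and 723 with no filter, 18 and 26 from 1 sum over libraries, and 24 and 27 against GFP-negative cells with Rpl10a under 1.5% of ribosomal protein UMIs. Median-of-ratios scaling gave 10 lower, and leaving out barcodes found under another suffix 33 lower. Fewer cells and scarcer genes have more counting error under a fixed limit on size. In leave-one-out runs over the 4 libraries the counts were 14 to 27 higher and 28 to 32 lower.

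The GFP share of smooth muscle cells, a median of 7.39%, was 3.19% thinned to 3000 UMIs and 1.33% at 2 or more GFP UMIs. The ascending minus root difference in that share, a median of 5.89 percentage points, was 0.501 at 2 or more GFP UMIs, 2.66 thinned, and 2.76 to 9.03 with 1 library left out. Thinned, library 4 alone was negative.

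List medians that moved by at least the standard deviation over libraries follow. With 1 matched cell: root −0.22, integrin −0.00607, TGF-β and BMP −0.0491. Matched also on region score: root −0.0255, less differentiated 0.13, integrin 0.0208, oxidative phosphorylation −0.0533. With 2 or more GFP UMIs: contractile 0.0228, other subsets −0.44, less differentiated 0.11, neural crest −0.0551, Hox −0.62, elastic fibre −0.11, collagen −0.20, basement membrane −0.15, proteoglycan −0.30, integrin −0.052, dissociation 0.40, fibroblast −0.20, cardiomyocyte −4.19, mitochondrial −0.25, oxidative phosphorylation −0.0529. At 50 CPM: root −0.29. With no filter: reporter −0.16, neural crest −0.29, cardiac mesoderm −0.34, collagen −0.0542, integrin −0.0745, cell cycle −0.33. From 1 sum: root −0.17, collagen −0.0148, oxidative phosphorylation −0.0442. Against Rpl10a-low cells: reporter 1.72 (by construction, as Rpl10a is its only measured gene), less differentiated −0.054, neural crest 0.17, fibroblast 0.0801. Median-of-ratios scaling: contractile 0.0178, oxidative phosphorylation −0.0455. Without barcodes found under another suffix: less differentiated −0.0887. Matched also on dissociation share: collagen 0.0969, fibroblast 0.11, oxidative phosphorylation −0.0438. With no matching: fibroblast 0.0745, ribosomal 0.0737, oxidative phosphorylation −0.0431. With the stricter gate: fibroblast 0.0034, oxidative phosphorylation −0.0553. In leave-one-out runs the ranges were root −0.50 to −0.28, less differentiated 0.0101 to 0.13, cardiac mesoderm 0.0195 to 0.22, Hox −0.34 to 0.37, collagen −0.0198 to 0.0341, proteoglycan −0.14 to −0.0368, fibroblast 0.0465 to 0.0799, cardiomyocyte −1.23 to 0.77, oxidative phosphorylation −0.0605 to −0.0535. Causes of these shifts were not tested beyond what each alternative changes.

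With 1 GFP UMI in most cells, a cell of the lineage can lack one, so that GFP-negative cells are not all untraced.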
